A study of Mus musculus with 13 samples.

Results

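The respiratory chain of the inner mitochondrial membrane is built from proteins of both genomes of the cell, and the mRNAs of its subunits were compared here by genome of origin in 13 mouse libraries. Of 21073 genes in the deposited table, 96 were kept: 83 nuclear genes and all 13 protein-coding genes of the mitochondrial genome. Nuclear genes were taken by symbol (Nduf without the Ndufaf assembly factors, Sdha to Sdhd, Uqcr, Cox4 to Cox8 and Atp5), and mitochondrial genes as ND1 to ND6, ND4L, CYTB, COX1 to COX3, ATP6 and ATP8. A gene was kept where its RPKM, reads per gene divided by gene length and library size, was at least 1 in 2 or more libraries. This minimum removed 5 of 88 nuclear genes: Uqcr11, Cox7b2, Cox8b, Cox8c and Ndufa4l2. The deposited symbols mix capitals and lower case, so each gene was identified by its Entrez number and its RefSeq symbol. Taken letter for letter, the deposited symbols would have given 17 nuclear genes, 15 of them above the minimum. The kept nuclear genes comprise 37 of complex I, 4 of complex II, 8 of complex III, 16 of complex IV (with Ndufa4, now counted as a subunit of that complex) and 18 of complex V. Among them are 3 pseudogene entries that carry a subunit's symbol, Ndufs5-ps, Uqcrh-ps1 and Atp5c1-ps.

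All mice were C57BL/6J and had been immunized with the myelin peptide MOG35-55 in complete Freund's adjuvant (CFA), and cells were taken on day 14. The myeloid groups came from DKI mice, whose knock-in changes in Stat5a and Stat5b leave STAT5 dimers but no tetramers. These mice also received pertussis toxin, which completes the induction of experimental autoimmune encephalomyelitis (EAE), an animal model of multiple sclerosis. Sorted bone marrow monocytes, spinal cord monocytes and spinal cord antigen-presenting cells (APCs) gave 1 library each, with no wild-type (WT) counterpart and no replicate. The Th17 groups came from mice without pertussis toxin: spleen and lymph node cells grew with the peptide in Th17 conditions, and CD4+ T cells were sorted 3 days later. They comprise WT (n = 2), DKI (n = 2), DKI expanded without the chemokine CCL17 (n = 3) and DKI expanded with it (n = 3). No label says whether replicates came from separate animals or cultures, so p-values measure only the spread between these libraries, which may be technical. Estimated depth was 12500000 to 31700000 assigned reads. T cell markers (10 genes) summed to 3180 to 5250 RPKM in the Th17 libraries and to 0.342 to 31.4 RPKM in the myeloid libraries. Monocyte and macrophage markers (10 genes) summed to 15200 to 22700 RPKM in the myeloid libraries.

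Electrons from NADH enter the chain at complex I and those from succinate at complex II, pass through complex III and cytochrome c to complex IV, and are handed to oxygen. The proton gradient made on the way drives complex V, the ATP synthase. Complexes I, III, IV and V each hold subunits from both genomes, whereas complex II is encoded in the nucleus alone. Mitochondrial mRNAs are cut from long transcripts of both strands of the circular genome, and nuclear subunits are transcribed gene by gene, often with the factors NRF1 and GABP at their promoters.

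The mitochondrial genes are shown first, because parts of their sequence also occur in the nuclear genome. In the GENCODE M21 annotation (GRCm38, mm10), 6 pseudogenes lie side by side on chromosome 1 between 24611535 and 24615565, on the minus strand. Of the 50-base windows along each transcript, the share that also occurred in a transcript of another gene was 100% for COX2, 99.9% for COX3, 99.5% for ATP6, 98.8% for ND4L and 98.0% for ND3. ND4 shared 62.2% and COX1 51.1%, ND2 shared 8.19% and ND5 7.61%, and ATP8, CYTB, ND1 and ND6 shared none. The first 90 bases of ATP6 (chrM:7927-8016, plus strand) illustrate an exact copy: the nuclear copy Gm10925 is identical to them, and to 678 of 678 aligned bases of the gene.
ATP6: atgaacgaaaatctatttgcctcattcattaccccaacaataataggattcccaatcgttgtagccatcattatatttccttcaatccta
The first 90 bases of ND3 (chrM:9459-9548, plus strand) and its copy Gm28438 differ at 1 base, in capitals, which is the single difference over 345 aligned bases.
ND3: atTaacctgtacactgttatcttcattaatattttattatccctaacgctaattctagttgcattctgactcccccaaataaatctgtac
Gm28438: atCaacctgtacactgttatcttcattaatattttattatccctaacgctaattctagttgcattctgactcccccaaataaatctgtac
COX1 has a more distant copy on chromosome 2, Gm13340, with 37 differences over 1545 aligned bases (97.6% identity). A stretch of COX1 (chrM:5772-5861, plus strand) holds 5 of these differences, again in capitals.
COX1: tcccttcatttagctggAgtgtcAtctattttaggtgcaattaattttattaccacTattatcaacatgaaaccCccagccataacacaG
Gm13340: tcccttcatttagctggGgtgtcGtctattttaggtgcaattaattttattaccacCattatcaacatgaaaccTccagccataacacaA

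**Figure D1:**
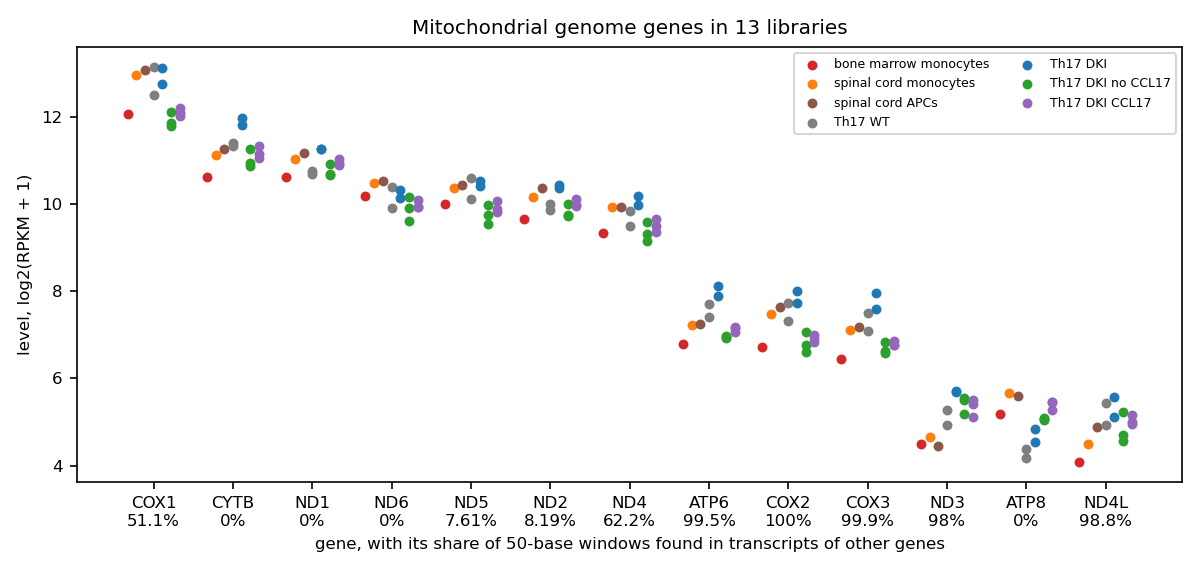
Level of the 13 mitochondrial genome genes, as log2(RPKM + 1), in each of the 13 libraries, coloured by group and ordered by their mean. The number under each gene is the share of its 50-base windows found in transcripts of other genes. The 5 genes with a share of 98.0% or more and ATP8 lie below the other 7.

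Levels within the mitochondrial genome spanned a wide range, and the genes with exact nuclear copies were among the low ones. On the scale of log2(RPKM + 1), which accounts for gene length, the mean over 13 libraries was 12.44 for COX1, 11.24 for CYTB, 10.92 for ND1, 10.12 for ND6, 10.11 for ND5, 10.02 for ND2 and 9.63 for ND4. ATP6, COX2 and COX3, which are cut from the same long transcript as COX1, averaged 7.28, 7.22 and 7.02. ND3, ATP8 and ND4L averaged 5.19, 5.06 and 4.93. COX1 encodes the catalytic subunit of complex IV, and COX2 encodes the subunit that takes up electrons from cytochrome c. How reads that match several places were counted is not given in the sources used here, and the pseudogenes themselves were not analysed here, so the levels of COX2, COX3, ATP6, ND3 and ND4L are uncertain. ATP8 shared no window, but it lies between COX2 and ATP6, overlaps ATP6 by 43 bases, and faces a stretch of 233 bases on chromosome 1 between their copies that carries no gene model. ND4L overlaps ND4 by 7 bases, and ND6 overlaps ND5 by 14 bases on the opposite strand. The strand setting of the counting is not given in the sources used here, so reads from the overlap of ND5 and ND6 cannot be told apart. ND6 is the only one of the 13 genes on the minus strand. Without counting by strand, plus-strand RNA along all of ND6 would count for it too, so its level is also uncertain.

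The nuclear set holds a similar case. Atp5g2 shared 87.4% of its windows with other genes and averaged 1.52, Atp5l shared 84.8% and averaged 2.40, and Cox7c shared 53.0% and averaged 3.34. Ndufs5 shared 41.2% and averaged 2.58, and Ndufb4 shared 37.0% and averaged 1.62. Atp5g1, Atp5g2 and Atp5g3 encode the same mature c subunit of the ATP synthase rotor. Their levels ran from 2.78 to 3.82, from 0.78 to 2.37 and from 7.51 to 8.33. Values of genes with such copies are uncertain.

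**Figure D2:**
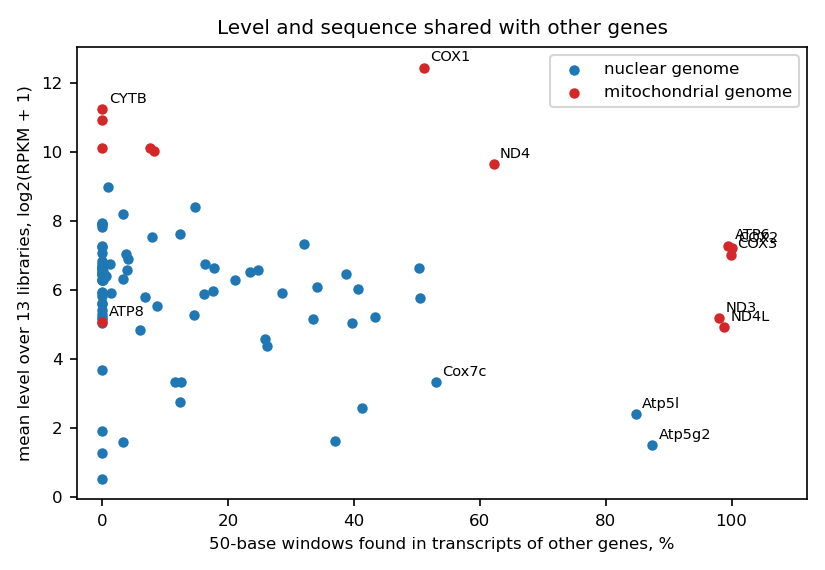
Mean level over the 13 libraries, as log2(RPKM + 1), against the share of 50-base windows that also occur in transcripts of other genes, for the kept members of both genomes. COX2, COX3 and ATP6 lie near 7 at a share of 99.5% or more, and CYTB lies at 11.24 with a share of 0.

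Library medians of the sets differed between bone marrow and spinal cord monocytes and among the Th17 groups. The nuclear median was 6.31 in bone marrow monocytes, 5.76 in spinal cord monocytes and 5.87 in spinal cord APCs. It was 5.86 and 5.96 in WT Th17 cells, 6.08 and 6.09 in DKI Th17 cells, 6.37, 6.24 and 6.21 in DKI cells without CCL17, and 6.27, 6.02 and 6.09 with CCL17. The mitochondrial median was 9.32, 9.94 and 9.93 in the same 3 myeloid libraries, 9.83 and 9.50 in WT, 10.17 and 9.98 in DKI, 9.16, 9.59 and 9.30 without CCL17, and 9.36, 9.65 and 9.50 with CCL17. Bone marrow monocytes thus had the lowest mitochondrial median among the myeloid libraries and the highest nuclear one. Pooled over the Th17 groups, the SD between replicates was 0.09 for the nuclear median, 0.19 for the mitochondrial median and 0.26 for their difference. Over the 13 libraries the medians had a Pearson correlation of -0.71, a description only, since the points share groups and experiments, and each value is a share of its library.

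Counted as estimated reads, mitochondrial mRNA made up 1.43% of assigned reads in bone marrow monocytes, 2.29% in spinal cord monocytes and 2.47% in spinal cord APCs. The share was 2.50% and 1.83% in WT cells, 2.76% and 2.34% in DKI cells, 1.32% to 1.63% without CCL17 and 1.53% to 1.73% with CCL17. The nuclear set took 0.608% to 0.910% of reads in every library, a narrower range. COX1 alone made up 41.1% to 56.0% of the mitochondrial mRNA reads, and its level is uncertain in part, as given above. The widest 95% exact binomial interval (Clopper-Pearson) of a mitochondrial share was 0.00757 percentage points to either side, which covers counting error only, since PCR copies are not independent molecules. In bulk RNA, fewer cells of a type and less RNA per cell cannot be told apart.

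**Figure D3:**
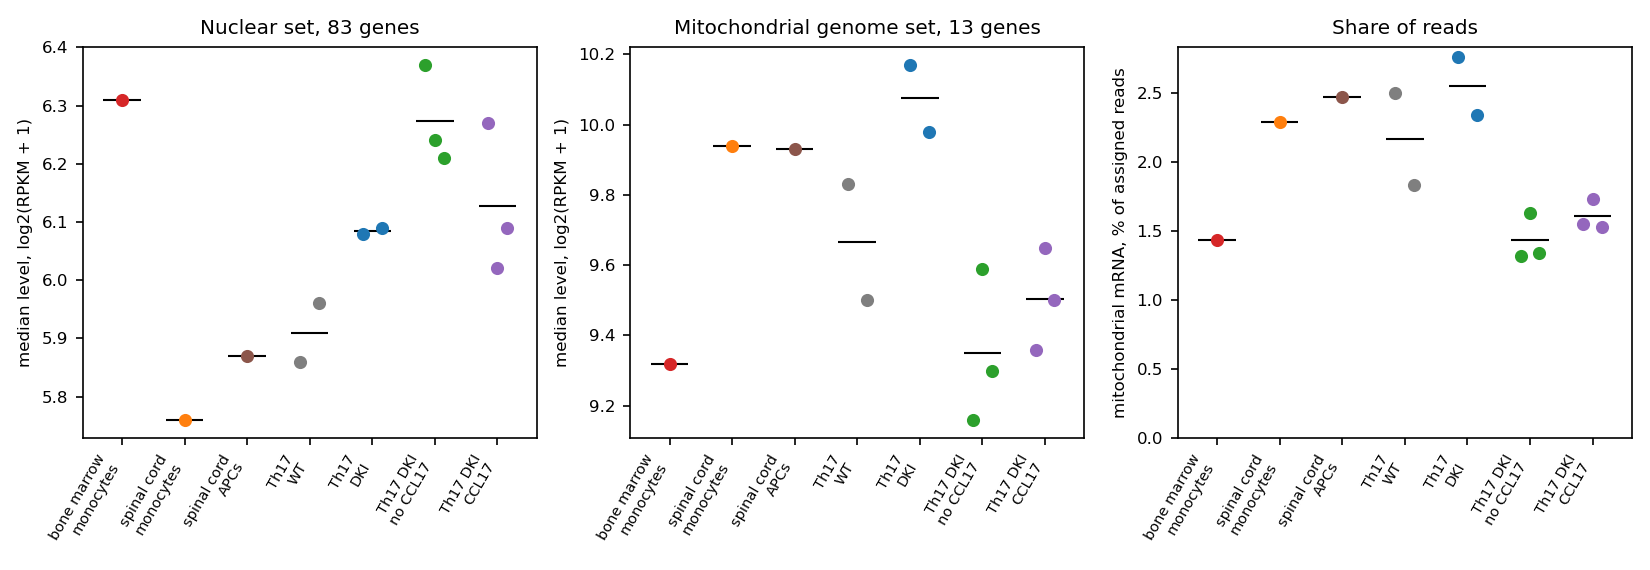
Median level of the nuclear set and of the mitochondrial genome set, as log2(RPKM + 1), and mitochondrial mRNA as a percentage of assigned reads, by group. Each point is a library and each line the group mean. Bone marrow monocytes are at 1.43% and both spinal cord libraries at 2.29% and 2.47%.

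Spinal cord monocytes were compared with bone marrow monocytes, both from DKI mice with EAE, as values of 1 library each with no replicate check. Mitochondrial mRNAs were higher in the cord and most nuclear mRNAs of the chain lower. All 13 mitochondrial genes were above 0, by 0.15 (ND3) to 0.90 (COX1) on the log2 scale, with a median of 0.48. An RPKM of at least 5 in either library was reached by 74 nuclear members, of which 17 were above 0, and the median was -0.32. Over all 8182 genes with that minimum, 31.5% were above 0 and the median was -0.37, so the nuclear members lay close to the genes at large. Of the nuclear members, 7 were at least 2-fold lower and 0 at least 2-fold higher, against 19.0% and 11.5% of all genes.

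By complex, COX1, COX2 and COX3 of complex IV were 1.87-fold, 1.68-fold and 1.60-fold higher in the cord on the log2(RPKM + 1) scale, and CYTB of complex III was 1.42-fold higher. The complex I genes ND4, ND2, ND1, ND4L, ND5, ND6 and ND3 were 1.53-fold, 1.41-fold, 1.32-fold, 1.32-fold, 1.29-fold, 1.24-fold and 1.11-fold higher. ATP8 was 1.40-fold and ATP6 1.36-fold higher. COX1 rested on an estimated 324327 reads in the cord and 208268 in the marrow, and its RPKM ratio of 1.87 had a 95% counting interval of 1.86 to 1.88. That interval does not cover the doubt from the 51.1% of COX1 windows shared with other genes.

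Nuclear subunits of every complex were among the lower ones. Ndufa4, a subunit of complex IV, was at 7.69 in marrow and 5.76 in cord monocytes, 3.82-fold lower. Cox6b2, a form of a complex IV subunit best known from testis, was at 3.05 and 1.51. Ndufb11, an accessory subunit of complex I, was 2.40-fold lower, and Ndufs1, its iron-sulphur subunit of the NADH module, 2.18-fold lower. Atp5a1, the alpha subunit of the ATP synthase, was at 8.50 and 7.35, 2.22-fold lower. Sdha, the flavoprotein of complex II, was at 6.62 and 5.58, 2.06-fold lower, as was Atp5pb of the ATP synthase stalk. Uqcrc1, a core subunit of complex III, was at 6.94 and 6.04. The members furthest in the other direction were Cox7c, at 2.67 in marrow and 3.66 in cord, Atp5l at 2.44 and 3.01, Ndufv3 at 4.79 and 5.34, Ndufa2 at 6.19 and 6.62, and Atp5g1 at 2.86 and 3.23. Cox7c and Atp5l share much of their sequence with other genes, as given above. The higher values among nuclear members were thus partly those of low and uncertain genes.

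Other mitochondrial genes of nuclear origin were mostly below 0, as were the genes at large (median -0.37, 31.5% above 0). The TCA cycle lay further below that median than the other lists. None of 16 measured genes of the TCA cycle and pyruvate dehydrogenase was above 0 (median -0.88), with Fh1 (fumarase) at -1.60, Idh2 at -1.38 and Cs (citrate synthase) at -1.17. Mitochondrial ribosomal proteins had a median of -0.48, with 10 of 70 above 0, and assembly factors of the chain a median of -0.34, with 7 of 34 above 0. Of the mitochondrial RNA processing genes, 4 of 14 were above 0 (median -0.39), and Lrpprc, which stabilizes mitochondrial mRNAs, was at -0.90. Tfam, which packages and transcribes mitochondrial DNA, was at -1.23, and 1 of 8 genes of its list was above 0 (median -0.59). Among the regulators of nuclear respiratory genes, 6 of 11 were above 0 (median 0.16). Hif1a, the oxygen-sensitive transcription factor, was at 2.05, and Ppargc1b, a coactivator of respiratory genes, at 1.73. Of these regulators 3 were at least 2-fold higher and 1 at least 2-fold lower, the latter Gabpa, a part of GABP, at -1.11.

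The compared libraries also differed in other markers. Neutrophil and granule genes (10 genes) summed to 6800 RPKM in the marrow library and 745 RPKM in the cord library, T cell markers to 0.342 and 30.0 RPKM, and microglia markers (10 genes) to 233 and 641 RPKM. The mitochondrial ribosomal RNAs were also higher in the cord library: mt-Rnr1 was at 8.86 in marrow and 11.62 in cord, and mt-Rnr2 at 9.37 and 11.47, larger differences than that of any mitochondrial mRNA. The part of these markers and RNAs in the differences was not tested. Centred on the median gene of each library, the nuclear median was -0.02 with 2 members at least 2-fold lower and 1 higher, and the mitochondrial median was 0.78 with 2 members at least 2-fold higher.

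Spinal cord APCs differed little from spinal cord monocytes in either set, again without replicates. Of 73 nuclear members 36 were above 0, with a median of -0.00, and 0 were at least 2-fold higher or lower, against 1.55% and 0.947% of 7499 genes. Of the mitochondrial genes 10 of 13 were above 0, with a median of 0.07 and a range from -0.20 (ND3) to 0.39 (ND4L). Ndufa4 was lower again in APCs (5.17, against 5.76 in cord monocytes), while Sdha (5.89 against 5.58) and Cox7a2l (6.74 against 6.42) were 1.24-fold higher. Microglia markers (10 genes) summed to 641 RPKM in cord monocytes and 1510 RPKM in cord APCs, and dendritic cell markers (7 genes) to 38.1 and 149 RPKM. Monocyte and macrophage markers summed to 15700 and 15200 RPKM, and erythroid and platelet markers to 50.9 and 33.6 RPKM. The part of these markers in the differences between the cord libraries was not tested.

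**Figure D4:**
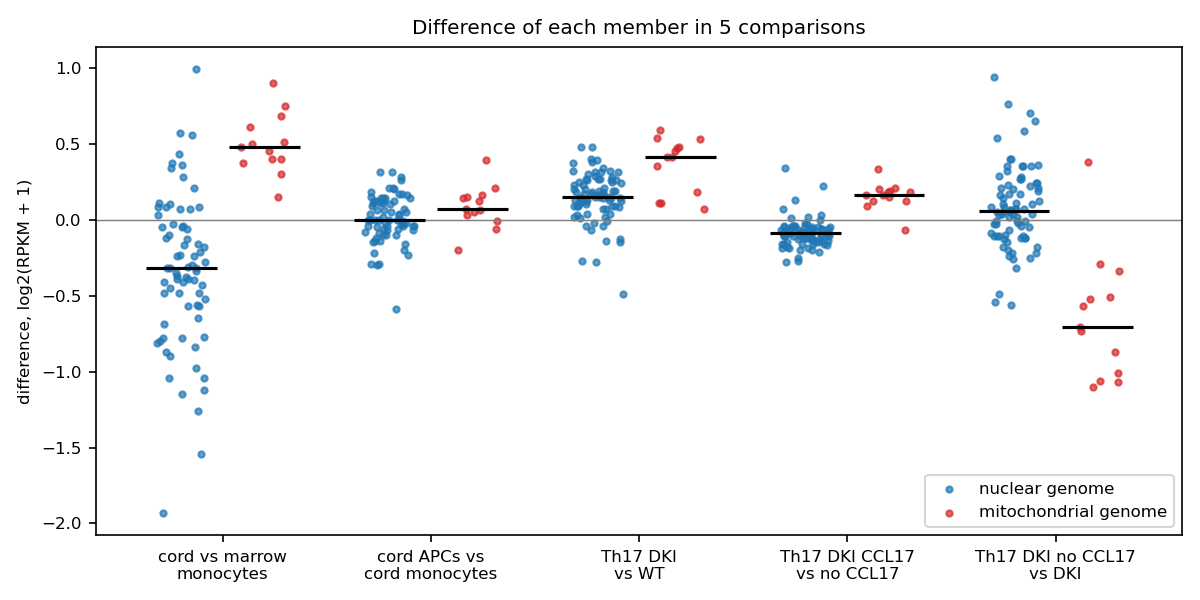
Difference of each member on the log2(RPKM + 1) scale in 5 comparisons, with the nuclear genes in blue and the mitochondrial genes in red, and a line at each median. In cord against marrow monocytes the medians are -0.32 and 0.48, and in DKI cells without CCL17 against DKI cells they are 0.06 and -0.71.

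In Th17 cells the comparison of DKI with WT asks what the loss of STAT5 tetramers does to T cells expanded in the same way. Neither set held a member that passed an adjusted p of 0.05, nor did any of the 11789 genes tested (0.0% called; 1887 genes had an unadjusted p under 0.05). All 13 mitochondrial genes had a difference above 0, with a median of 0.41 on the log2 scale and a range from 0.07 (ND6) to 0.59 (ND3). Of 82 nuclear members tested, 71 were above 0 with a median of 0.15, while over all genes 53.9% were above 0 with a median of 0.03. Both DKI libraries lay above both WT libraries for 9 of the mitochondrial genes and 20 of the nuclear ones, against 19.3% of all genes, and below them for 0 and 1, against 20.3%.

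ND1 was at 11.26 and 11.26 in the DKI libraries and at 10.76 and 10.70 in the WT libraries. CYTB was at 11.97 and 11.81 in DKI and at 11.39 and 11.33 in WT, and ATP6 at 8.13 and 7.89 against 7.71 and 7.40. These 3 genes did not overlap between the groups, with differences of 0.54 (SE 0.153, adjusted p = 0.179), 0.53 (SE 0.193, adjusted p = 0.250) and 0.45 (SE 0.122, adjusted p = 0.171). ND3, COX3, ND2, ATP8, ND4 and COX2 were also apart, by 0.59, 0.48, 0.47, 0.41, 0.41 and 0.35. COX1 overlapped, with 13.12 and 12.74 in DKI and 13.15 and 12.49 in WT, and so did ND4L, ND5 and ND6. The WT replicates lay further apart in COX1 than the group means, which differed by 0.11 (SE 0.276).

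Among nuclear members, Uqcrq, a small subunit of complex III, was at 7.31 and 6.91 in DKI and at 6.65 and 6.62 in WT (difference 0.48, SE 0.130, adjusted p = 0.172). Ndufv1, which binds NADH in complex I, was at 5.71 and 5.90 against 5.31 and 5.54 (difference 0.38, SE 0.104, adjusted p = 0.172). Ndufa12, Ndufc2 and Ndufb9, accessory subunits of complex I, differed by 0.39, 0.37 and 0.27, and all 5 genes were apart between the groups. In the other direction stood Uqcrh-ps1 (-0.49), Atp5l (-0.28), Atp5g2 (-0.27), Ndufab1 (-0.14) and Atp5c1-ps (-0.15), of which 2 are pseudogene entries. By complex, the medians of the nuclear members were 0.14 for complex I, 0.18 for complex II, 0.16 for complex III, 0.18 for complex IV and 0.15 for complex V. The library DKI replicate 2 bears on these calls: without it, ATP8 (adjusted p = 0.0471) and Uqcrq (adjusted p = 0.0213) passed, together with 485 genes in all. With each of the 4 libraries left out in turn, the medians ranged from 0.28 to 0.53 for the mitochondrial set and from 0.02 to 0.32 for the nuclear set.

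Genes that serve the chain were mostly above 0 too, with 0 called in any list. The counts above 0 were 70 of 77 mitochondrial ribosomal proteins (median 0.19), 16 of 17 TCA cycle genes (0.18) and 17 of 19 RNA processing genes (0.20). They were 19 of 20 genes for cytochrome c, quinone synthesis and mitochondrial membrane carriers and channels (0.25) and 36 of 46 assembly factors (0.12). Genes of mitochondrial DNA maintenance and transcription had 13 of 19 above 0 (median 0.04), and the regulators 5 of 11 (median -0.02). Across 11251 tested genes with a known length, the difference had a Spearman correlation of -0.26 with transcript length, a description across genes, which are not independent replicates. Nuclear members are short, with a median length of 838 bases against 3032 for all tested genes, and the part of length in these differences was not tested. Some marker sums were lower in DKI than in WT: monocyte and macrophage 54.6 to 66.1 against 71.1 to 158 RPKM, neutrophil and granule 3.53 to 7.62 against 9.14 to 17.5 RPKM. Dendritic cell, erythroid and platelet, and neuron and glia sums were also lower without overlap. T cell, B cell and microglia sums overlapped. The part of these markers was not tested.

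The addition of CCL17, a chemokine that binds CCR4, to DKI cells during expansion was compared with its absence in 3 libraries each. No gene of either set was called, nor any of 11297 genes tested (0.0% called; 411 genes, or 3.64%, had an unadjusted p under 0.05). Of 82 nuclear members 74 were below 0, with a median of -0.09, and 12 of 13 mitochondrial genes were above 0, with a median of 0.16. Over all genes 45.8% were above 0 with a median of -0.01. Both medians were of the size of the SD between replicates of the library medians, 0.09 and 0.19. Within replicate numbers 1, 2 and 3, the library medians changed with CCL17 by -0.10, -0.22 and -0.12 for the nuclear set and by 0.20, 0.06 and 0.20 for the mitochondrial set. Their difference changed by 0.31, 0.27 and 0.32, a description with no test.

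ATP8 was at 5.27, 5.46 and 5.46 with CCL17 and at 5.07, 5.09 and 5.05 without it, and ATP6 at 7.17, 7.16 and 7.07 against 6.97, 6.96 and 6.92. ATP6, which forms the proton path with the c subunits, and ATP8, a small subunit of the membrane part, were thus apart between the groups, ATP8 by 0.33 (SE 0.0681) and ATP6 by 0.18 (SE 0.0539), with an adjusted p of 0.999 each. The other 11 mitochondrial genes overlapped, and their differences ran from -0.07 (ND3) to 0.21 (ND4L). Among nuclear members 10 were apart and lower with CCL17 and 1 apart and higher, against 4.28% and 5.20% of all genes. The lower ones with the smallest p were Sdhc, a membrane anchor of complex II (-0.15, SE 0.0528), Atp5md (-0.25, SE 0.0902), Uqcrq (-0.18, SE 0.0678), Ndufa11 (-0.20, SE 0.0761) and Ndufs8 (-0.13, SE 0.0499), each with an adjusted p of 0.999. Cox7a1, the heart and muscle form of a complex IV subunit, was the member apart and higher (0.34, SE 0.146). Across 10824 genes the difference had a Spearman correlation of 0.43 with transcript length, again a description, and its part was not tested. Of the lists that serve the chain, mitochondrial ribosomal proteins had 9 of 77 above 0 (median -0.06), TCA cycle genes 4 of 17 (-0.05), carriers and electron transfer genes 4 of 20 (-0.06) and assembly factors 17 of 46 (-0.03). RNA processing genes had 8 of 19 above 0 (median -0.00), genes of mitochondrial DNA maintenance and transcription 11 of 19 (0.00) and regulators 7 of 11 (0.01).

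DKI Th17 cells appear in the labels both as a plain DKI group and as the group without CCL17, and the latter was set against the former. This comparison and that of DKI with WT share the DKI libraries. Here 33.0% of 11789 genes were called, 15.3% higher and 17.7% lower. No label says whether the WT and plain DKI libraries were made together with those of the CCL17 experiment, so a batch of that kind and the group cannot be told apart. In the libraries without CCL17, 9 of 13 mitochondrial genes were lower and 1 was higher, with a median difference of -0.71. Of 82 nuclear members 8 were higher and 1 was lower, with a median of 0.06, against a median of -0.02 over all genes. The nuclear median turned to -0.04 without DKI replicate 1 and was 0.17 without DKI replicate 2. At an unadjusted p under 0.05 stood 10 mitochondrial and 17 nuclear members, against 44.3% of all genes. Differences above 0 were found in 1 mitochondrial gene and 50 nuclear members, against 48.1% of all genes. All libraries of one group lay above those of the other for 10 mitochondrial genes lower and 1 higher and for 7 nuclear members lower and 22 higher, against 29.8% of all genes lower and 25.8% higher.

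The lower mitochondrial genes came from all 4 complexes that hold such subunits. COX3 was at 6.57, 6.83 and 6.63 without CCL17 and at 7.96 and 7.60 in the plain DKI libraries, and COX2 at 6.61, 7.05 and 6.75 against 8.01 and 7.74. ATP6 was at 6.97, 6.96 and 6.92 against 8.13 and 7.89. The groups did not overlap for any of these genes, which fell by 1.10 (SE 0.149, adjusted p = 0.00120), 1.07 (SE 0.166, adjusted p = 0.00217) and 1.06 (SE 0.111, adjusted p = 0.000407). COX1 fell by 1.01, CYTB by 0.87, ND4 by 0.73, ND5 by 0.71, ND2 by 0.57 and ND1 by 0.51, with adjusted p from 0.00665 to 0.0234. ATP8, by contrast, was at 5.07, 5.09 and 5.05 against 4.83 and 4.53 and rose by 0.38 (SE 0.110, adjusted p = 0.0278). ND4L (-0.52), ND6 (-0.34) and ND3 (-0.29) did not pass. With no minimum RPKM in the fit, ATP6, COX2, COX3 and ND4 were still called lower. CYTB (adjusted p = 0.198) and ND2 (adjusted p = 0.0902) then did not pass. ATP6, COX2 and COX3 share at least 99.5% of their windows with other genes, and their levels are uncertain, as given above. Of the 10 calls, 5 (ATP6, COX3, COX2, CYTB and ND2) held without each library in turn, and the ATP8 call held in 1 of 5 such fits.

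The nuclear members that rose were Uqcrq (0.70, SE 0.119, adjusted p = 0.00313), Ndufa12 (0.65, SE 0.127, adjusted p = 0.00600), Atp5md (0.54), Ndufc2 (0.40), Ndufb9 (0.35), Ndufa1 (0.28) and the pseudogene entries Uqcrh-ps1 (0.76) and Ndufs5-ps (0.35). Ndufa12, Ndufc2, Ndufb9 and Ndufa1 are accessory subunits of complex I, and Atp5md belongs to the membrane part of the ATP synthase. Uqcrq was at 7.84, 7.86 and 7.76 without CCL17 and at 7.31 and 6.91 in plain DKI cells, and Ndufa12 at 4.88, 5.04 and 5.02 against 4.21 and 4.45. Neither overlapped between the groups. The pseudogene entries resemble their parent genes, and their values are uncertain. Cox7a1 fell by 0.56 (SE 0.166, adjusted p = 0.0318), from 2.30 and 2.08 to 1.87, 1.67 and 1.35. Cox7a2l (-0.32), Uqcrh (-0.54), Ndufv3 (-0.25) and Atp5g2 (-0.49) were the next lower members and did not pass. Without each library in turn, the calls of Uqcrq and Ndufa12 held and those of the other 7 nuclear members were lost at least once.

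The lists of genes around the chain are read against the 15.3% of all genes called higher and 17.7% called lower, and most of their counts of higher genes were near or below that share. Of 77 mitochondrial ribosomal proteins 10 rose and 0 fell, led by Mrpl2 (0.33), Mrps22 (0.41) and Mrpl52 (0.31). Of 46 assembly factors 8 rose and 3 fell: Surf1 (-0.45) and Cox20 (-0.69), both needed to build complex IV, were among the latter, and Nubpl (0.54), which helps build complex I, among the former. For mitochondrial DNA maintenance and transcription, 2 of 19 rose and 2 fell, the latter Polg (-0.46) and Polg2 (-0.66), subunits of the mitochondrial DNA polymerase. Of 17 TCA cycle genes, Dld (0.43) and Dlat (0.48) of pyruvate dehydrogenase rose and Idh2 fell (-0.64). Rexo2, a mitochondrial RNA exonuclease, was the single gene called of 19 RNA processing genes (0.58). Among 20 carriers and electron transfer genes, 3 rose and 1 fell: Vdac3 (0.35) rose, Ucp2, an inner membrane carrier, fell (-0.38), and Atpif1, the inhibitor of the ATP synthase, rose (0.52). Among 11 regulators, Gabpa (0.24) and Gabpb1 (0.26), which together form GABP, rose, and Ppargc1b fell (-0.47).

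Markers of other cell types differed between these groups, in both directions. Monocyte and macrophage markers summed to 596 to 862 RPKM without CCL17 and 54.6 to 66.1 RPKM in plain DKI cells. Neutrophil and granule markers summed to 273 to 603 RPKM against 3.53 to 7.62 RPKM, with Elane and Retnlg at 0 in both plain DKI libraries. For erythroid and platelet markers (7 genes) the sums were 260 to 315 RPKM against 2.81 to 3.30 RPKM, with Hbb-bs and Ppbp at 0 in the latter, and for B cell markers (8 genes) 65.4 to 103 RPKM against 7.87 to 17.4 RPKM. Microglia markers (10 genes) were also higher, at 52.9 to 63.0 RPKM against 30.5 to 49.3 RPKM. Dendritic cell markers (7 genes) were lower, at 71.4 to 108 RPKM without CCL17 against 109 to 170 RPKM. Neuron and glia markers (8 genes) were lower too, at 16.8 to 20.4 RPKM against 28.7 to 30.9 RPKM. T cell markers overlapped, at 3960 to 5250 RPKM against 3180 to 4350 RPKM. The part of these markers in the differences was not tested.

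Some members are forms used in particular tissues, and these were low throughout. Cox4i1, the common form of its subunit, was at 8.05 to 8.92, while Cox4i2, best known from lung, was at 0 to 1.43. Cox6a1 was at 7.26 to 8.04, and Cox6a2, its heart and muscle form, at 0.10 to 2.58. Cox7a2 ran from 5.38 to 6.38 and Cox7a1 from 1.35 to 2.33. Cox8a ran from 7.72 to 8.18, and Cox8b, not kept, from 0 to 0.96. Ndufa4l2, a relative of Ndufa4 known to be induced in low oxygen and also not kept, was at 0.17 in marrow monocytes, 0.66 in cord monocytes and 1.40 in cord APCs. Among other subunits, Atp5b was at 8.12 to 9.40, Uqcrc1 at 6.00 to 6.94, Uqcrfs1 at 6.02 to 6.71, Cox5a at 6.93 to 7.73, Sdhb at 6.27 to 6.81 and Ndufs7 at 5.21 to 5.70.

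Promoters of nuclear members were searched for 3 motifs on both strands, from 250 bases before to 50 bases after the start of the gene in RefSeq (GRCm38.p6). Of 66 members with an entry, 17 (25.8%) held the NRF1 motif (GCGCA, any base, then GCGC), against 11.8% of 9409 genes. The ETS motif bound by GABP, CCGGAAG, was in 24.2% of members and 20.9% of genes, and the YY1 motif AAGATGGC in 15.2% and 5.48%. None of these motifs contains another, and 56.1% of members held at least 1 of the 3, against 33.5% of genes. The promoters of Sdha (chr13:74350191-74350490, minus strand), which holds the NRF1 motif at 3 places, and Cox6a1 (chr5:115348909-115349208, minus strand), which holds NRF1 and ETS motifs, show how these sit near the start. Motifs are in capitals, and a match is a description of the letters, not of binding.
Sdha: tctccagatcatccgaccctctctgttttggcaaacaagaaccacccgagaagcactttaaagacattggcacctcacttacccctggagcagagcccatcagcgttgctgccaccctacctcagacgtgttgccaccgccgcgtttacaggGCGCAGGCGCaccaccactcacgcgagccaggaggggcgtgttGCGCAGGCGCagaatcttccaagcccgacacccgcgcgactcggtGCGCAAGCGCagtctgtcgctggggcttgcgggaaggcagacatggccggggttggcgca
Cox6a1: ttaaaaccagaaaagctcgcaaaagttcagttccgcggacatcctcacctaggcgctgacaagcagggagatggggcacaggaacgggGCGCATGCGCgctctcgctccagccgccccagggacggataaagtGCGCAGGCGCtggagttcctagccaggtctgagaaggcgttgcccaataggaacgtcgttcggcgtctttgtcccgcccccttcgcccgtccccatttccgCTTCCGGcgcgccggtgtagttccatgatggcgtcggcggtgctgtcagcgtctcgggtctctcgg

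The genes outside the chain whose levels followed the nuclear median most closely over the 13 libraries were Ywhaq (Pearson r = 0.972), Rtn3 (0.935), Dctn1 (0.929), Fmc1 (0.929) and H2ax (0.924). These are descriptions over libraries that share groups and experiments.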

How the data were processed

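RNA was measured by mRNA sequencing in 13 libraries. The submitters' processing notes name Subread, featureCounts and build mm10, while versions, settings and normalization steps are not given in the sources used here. RPKM is named by the deposited table itself, and the log2(RPKM + 1) scale of the deposited values was checked on their sums: weighted by gene length, base 2 gave sums of 1055000 to 1086000 and base e 8685000 to 15810000. Genes carrying 0.0001 were set to 0. Of 21073 Entrez identifiers, 20857 matched RefSeq symbols and 216 kept the deposited symbol. The APC values come from a column named for spinal cord MDC, matched as the only sample and column left. The 4 Sdhaf assembly factors were left out. Lengths came from GENCODE M21, and depth was estimated from the step of 1 read between low values.

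Th17 groups were tested in R 4.3.3 with limma 3.58.1 (eBayes with a mean-variance trend, Benjamini-Hochberg adjustment over all tested genes, threshold 0.05, tested on simulated data). The simulated data held log2 shifts of 1 and 2 with independent noise. Shifts of 1 were recovered in 68% of cases for DKI against WT, 85% for CCL17 and 80% for DKI without CCL17 against DKI. Smaller shifts were not simulated. Genes needed an RPKM of at least 1 in 2 libraries (3 for CCL17). CCL17 used its own 6 libraries and the other comparisons all 10. Myeloid libraries were compared without a test at an RPKM of at least 5. In the CCL17 experiment, deviations of same-numbered libraries correlated at 0.77, 0.51 and 0.52, and those of replicates 2 and 3 across numbers at 0.50 and 0.53. These values set number 1 apart but do not tell number 2 from number 3, so pairing by number is not shown for these 2. Deviations from a group mean sum to 0, which also constrains the signs. The values printed come from the fit without the block. In the CCL17 experiment the block left 0 members called.

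Named genes are the 13 mitochondrial genes, up to 5 nuclear members per direction (smallest p, or largest difference in the myeloid comparisons), fixed members, up to 3 genes per pathway list and the 5 most similar genes. Further members named with shared sequence, as called or as lower by at least 2-fold were chosen after their values were seen. Members and lists were chosen with earlier results of these data known.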

Additional observations from a re-analysis of the deposited data

How the results depend on the processing

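The alternatives were another pseudocount, filter, scaling, variance model, block, fit and set of members, and each library left out. Libraries left out aside, 187 of the values for sets and counts stayed within the spread or within 1.5 times the count, and 23 did not. The 187 include counts of called members in DKI against WT and in the CCL17 experiment. These were 0 in the main fit and in each such alternative, so their agreement says little. For DKI without CCL17 against DKI, the members called changed as follows. With no filter 0 nuclear members were called lower and 4 mitochondrial ones, and with an RPKM of at least 5, 0 nuclear. Centring on the median gene gave 5 nuclear higher and 2 lower, and quantile normalization 5 and 3. The fit of the compared libraries gave 0 nuclear lower and 0 mitochondrial higher. With the replicate number as a block, 0 nuclear members were higher and 0 lower, and 0 mitochondrial higher and 1 lower (ATP6, adjusted p = 0.0405), among 833 of 11507 genes called. These numbers are not shown to pair the samples (correlations of 0.13 and 0.10). For DKI and WT, deviations of same-numbered libraries correlated at 0.45, and the block gave 0 calls. Over 12141 genes, the levels of WT 2 and DKI 2 correlated at 0.9846 and those of WT 1 and DKI 1 at 0.9691. The 2 WT libraries correlated at 0.9759 and the 2 DKI libraries at 0.9657. Libraries of DKI and WT with the same number may thus belong together, which no label states. In the CCL17 experiment the block gave 2 genes called in all and 0 members.

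In cord against marrow monocytes, centring gave nuclear counts of 1 higher and 2 lower (median -0.02) and 2 mitochondrial higher (median 0.78). Nuclear members at least 2-fold higher numbered 1 with a pseudocount of 0.1 and 2 with an RPKM of at least 1, a minimum that gave 1 in APCs against cord monocytes. The difference between the mitochondrial and nuclear medians changed by 1.16 from marrow to cord, by 0.73 with symbols in the deposited letter case and by 0.89 without mitochondrial genes sharing at least 50% of windows, alternatives chosen after seeing the data. The causes were not tested. ND6 in DKI against WT turned to -0.14 under quantile normalization.

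With each library left out in turn, the nuclear median ranged from 0.02 (without WT replicate 1) to 0.32 (without WT replicate 2) in DKI against WT, where COX1 ranged from -0.21 to 0.44, ND4L from -0.07 to 0.43, ND5 from -0.12 to 0.35 and ND6 from -0.17 to 0.31, and 0 to 1 members of each set were called higher. With CCL17, ND3 ranged from -0.19 to 0.04 and ND6 from -0.05 to 0.22. For DKI without CCL17 against DKI, the nuclear median ranged from -0.04 to 0.17, and the calls from 4 to 6 nuclear higher, 0 to 1 nuclear lower, 0 to 1 mitochondrial higher and 5 (without DKI replicate 1) to 10 mitochondrial lower. Nuclear calls higher were fewest, at 4, without either DKI library and without replicate 1 or 3 of the group without CCL17. A lone remaining library is assumed to vary like the other groups.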

Other observations

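The mitochondrial ribosomal RNAs, which belong to neither set, were also in the table. On the log2(RPKM + 1) scale, mt-Rnr1, the 12S rRNA, was at 11.00 in spinal cord APCs, and mt-Rnr2, the 16S rRNA, at 11.34. In the Th17 libraries mt-Rnr1 ranged from 9.34 to 9.96 and mt-Rnr2 from 9.89 to 10.5.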
